A study of Mus musculus with 12 samples.

Results

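The comparison set 7 malignant peripheral nerve sheath tumours labelled C57BL/6J x SJL/J against 4 labelled C57BL/6J, chosen by the strain label alone, which together are all 11 tumours of the series. The question was where in the genome DNA dosage differed between the backgrounds, at the level of single probes, of short windows and of whole chromosomes. Every tumour came from a mouse carrying the P0-GGFβ3 transgene, which drives a neuregulin-1 isoform in Schwann cells, and was grown as a culture before DNA was taken. DNA of each culture (Cy5) was hybridised with DNA of wild-type, non-neoplastic Schwann cells labelled C57BL/6J (Cy3) to an Agilent mouse array of 60-base probes, with no dye swap. The mixed group held A18 (passage 11), 231 Trig (no passage given), A202 (passage 6), A390 (passage 7), A292 (passage 8), A382 (passages 8 and 9, averaged) and A394 (passage 5). The C57BL/6J group held B86 (passage 6), B91 (passage 9), B96 (passage 8) and B76 (passage 13). The label of the mixed group does not give the share of each strain in a mouse, and DNA from normal tissue of the same mice was not analysed here, so an inherited and an acquired difference cannot be told apart tumour by tumour. A DNA ratio does not test the label of a cell type. The labels give each tumour a name of its own and do not say which mice were littermates, so the p-values measure only the spread between these cultures.

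Inbred mouse strains differ in single bases and in the copy number of short stretches of DNA, many of them in gene families that duplicate and delete readily, such as olfactory receptors. A mouse from a cross can carry no, a single or a pair of copies of either strain's version of such a stretch, and neighbouring stretches are inherited together. Tumours add gains and losses of their own, which often span whole chromosome arms, and a probe can also bind more weakly to DNA that differs from it by a few bases. Values below are log2 ratios of tumour over reference, with the median autosomal probe of each array at 0.

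The arrays lay on 3 slides with 4 arrays each, and every slide held both backgrounds. Slide 1 carried A18, 231 Trig, A202 and the C57BL/6J tumour B86. Slide 2 carried A390, A292, A382 at passage 8 and the C57BL/6J tumour B91, and slide 3 carried A382 at passage 9, A394 and the C57BL/6J tumours B96 and B76. Slide 1 was noisier: the scanner software marked 0.723% to 1.99% of its spots as outliers, and 0.0604% to 0.107% on slides 2 and 3.

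Calls were made at single probes, and none over windows or chromosomes. Of 40726 autosomal probes, 17 (0.0417%) differed, with an adjusted p under 0.05 in limma and a difference of at least 0.2. In the mixed tumours 13 of them (0.0319% of all probes) were higher and 4 (0.00982%) were lower. The sequences of the 5 probes with the largest positive and the 4 with the largest negative difference are shown because each call rests on that stretch of DNA alone. Each had 1 perfect match in the genome as the array files count them, and positions are in mm9, on the strand that the files list.

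Tom1l1: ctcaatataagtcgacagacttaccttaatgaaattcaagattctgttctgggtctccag
A_53_P110574: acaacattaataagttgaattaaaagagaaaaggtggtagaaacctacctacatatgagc
Gapdhs: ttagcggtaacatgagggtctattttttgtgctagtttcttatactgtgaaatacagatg
A_53_P130451: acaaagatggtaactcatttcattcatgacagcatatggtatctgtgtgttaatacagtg
Mapk1ip1l: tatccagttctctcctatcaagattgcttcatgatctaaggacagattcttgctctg
A_53_P161891: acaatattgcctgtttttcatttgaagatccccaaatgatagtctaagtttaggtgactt
AK005010: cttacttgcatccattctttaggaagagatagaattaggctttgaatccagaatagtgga
Kcnk7: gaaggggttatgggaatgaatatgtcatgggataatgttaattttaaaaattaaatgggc
Col5a3: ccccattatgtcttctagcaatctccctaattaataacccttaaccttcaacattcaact

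The largest difference lay at a probe of Tom1l1, which encodes an adaptor protein of endosomal sorting, at chr11:90535960-90536019. The mixed tumours ranged from -0.31 (A394) to 1.10 (A202) with a median of 0.64. The C57BL/6J tumours lay at -2.48 (B86), -1.43 (B91), -1.91 (B96) and -2.10 (B76), all far below the reference and below every mixed tumour. The means were 0.55 ± 0.43 (SD, n = 7) and -1.98 ± 0.44 (SD, n = 4), a difference of 2.53 ± 0.22 (SE, limma adjusted p = 0.000437). On slides 1, 2 and 3 the difference was 3.32, 1.94 and 2.10. The other Tom1l1 probe, 8.6 kb along the chromosome, lay between -0.01 and 0.86 in all 11 tumours and did not pass (limma adjusted p = 0.79).

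Gapdhs, the sperm form of glyceraldehyde-3-phosphate dehydrogenase, had 1 probe, at chr7:31523443-31523502. Mixed tumours lay at -0.34 (231 Trig) to 0.32 (A18), with a median of 0.05, and C57BL/6J tumours at -1.40, -0.82, -1.24 and -1.49 in B86, B91, B96 and B76. The difference was 1.23 ± 0.14 (SE, limma adjusted p = 0.00948). The median of the mixed tumours lay near the reference and the C57BL/6J tumours lay below it. The probe of Mapk1ip1l at chr14:47939666-47939722 had the same arrangement, with -0.80 to 0.22 (median -0.10) in mixed tumours and -1.31, -1.39, -1.35 and -1.12 in the C57BL/6J tumours (difference 1.12 ± 0.16 SE, limma adjusted p = 0.0243).

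In 10 of the 13 probes that were higher in mixed tumours, the mean of the C57BL/6J tumours lay farther from the reference than the mean of the mixed tumours. At 9 of the 17 probes all 4 C57BL/6J tumours lay below -0.3, and at 3 of the 17 (Kcnk7, Col5a3 and Myh1) all 4 lay within 0.3 of the reference. Myh1 is on chromosome 11, whose medians were raised in both groups, at 0.41 to 0.88 in C57BL/6J and 0.50 to 1.06 in mixed tumours. At Myh1 the C57BL/6J tumours therefore lay at the reference but below the level of their chromosome. All 7 mixed tumours lay within 0.3 of the reference at 1 of the 17, Upf2. The reference carries the same strain label as these 4 tumours, and the cause of their offset from it was not tested.

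At 3 of the 4 lower probes the mean of the mixed tumours was the one farther from the reference. At AK005010 (chr19:10716357-10716416, a cDNA name) the mixed tumours lay at -1.19 to -0.09, with a median of -0.76, and the C57BL/6J tumours at 0.38, 0.18, 0.33 and 0.11. At Kcnk7, a potassium channel gene at chr19:5707029-5707088, the mixed tumours lay at -1.36 to -0.51 (median -1.11) and the C57BL/6J tumours at 0.15, -0.14, 0.03 and -0.19. At Col5a3, a collagen V chain gene at chr9:20610204-20610263, they lay at -0.88 to -0.26 (median -0.71) against 0.23, -0.01, 0.21 and 0.11. Their differences were -1.01 ± 0.15, -0.99 ± 0.16 and -0.79 ± 0.11 (SE, limma adjusted p = 0.0328, 0.0387 and 0.0243). At Kcnk7 and Col5a3 the C57BL/6J tumours were within 0.3 of the reference and the mixed tumours lay below it. At AK005010 B86 and B96 lay above 0.3, and A382, at -0.09, lay nearer the reference than any C57BL/6J tumour.

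The fourth, A_53_P161891 at chr11:30405406-30405465, lay at -0.19 to 1.06 (median 0.14) in mixed tumours and at 3.24, 1.49, 1.79 and 2.00 in the C57BL/6J tumours (difference -1.92 ± 0.28 SE, limma adjusted p = 0.0243). The reference channel moved with it: the Cy3 signal was 1.25 higher in log2 on arrays of mixed tumours, and the Cy5 signal 0.66 lower. On 1 of the 12 arrays its Cy3 signal was not well above background. An Acyp2 probe 30.2 kb away was likewise high in the C57BL/6J tumours, at 4.19, 3.21, 3.42 and 3.52, and in 3 mixed tumours (A18 2.48, 231 Trig 2.70 and A394 2.43), while the other 4 mixed tumours lay at 0.60 to 0.92. That probe did not pass (limma adjusted p = 0.13), although its groups did not overlap.

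Across the 17 probes, the Cy5 difference had the sign of the ratio difference at every probe and was larger in size than the Cy3 difference at 14. The median size was 0.81 in Cy5 and 0.10 in Cy3, against 0.13 and 0.05 over all probes. The exceptions were A_53_P161891, A_53_P112327 and Lmo4, where the reference channel moved more, by 1.25, -0.40 and -0.55. Taken in each channel alone, limma called 0 probes in Cy5 and 0 in Cy3, with 2085 and 230 probes at an unadjusted p under 0.05.

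**Figure D1:**
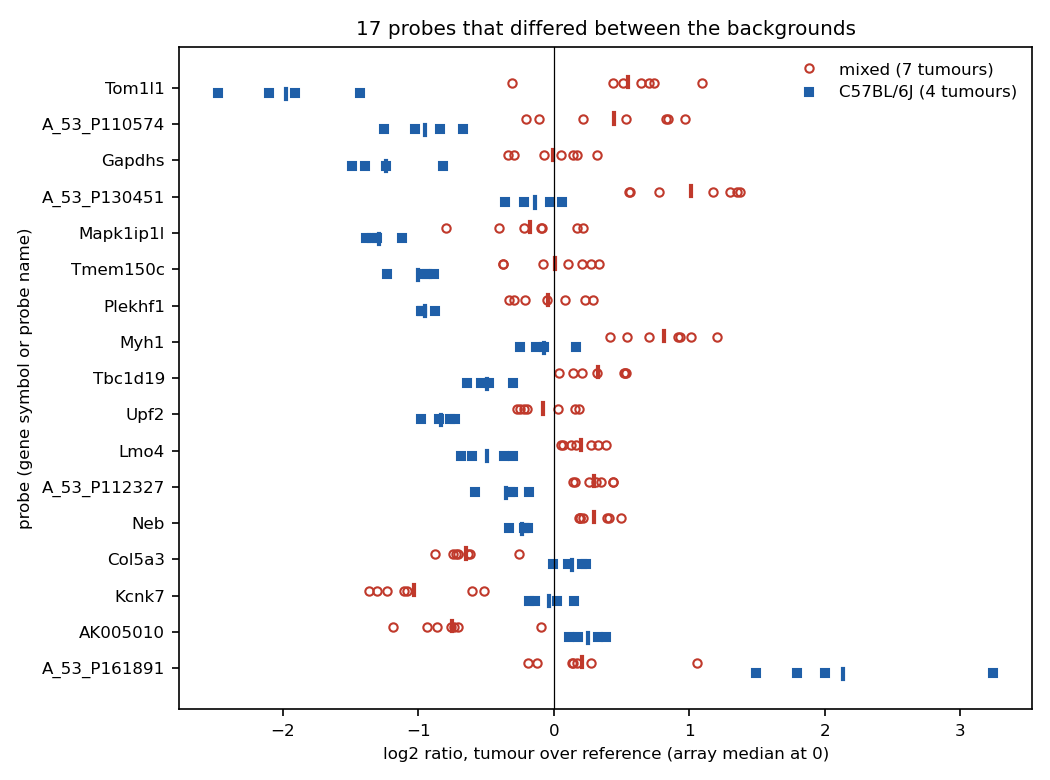
Log2 ratio of tumour over reference (horizontal axis) at the 17 called probes, with an open circle for each of 7 mixed tumours, a square for each of 4 C57BL/6J tumours and a short bar at each group mean. The groups do not overlap at any of the 17; at Tom1l1 and Gapdhs the C57BL/6J tumours lie farther from 0 than the mean of the mixed tumours.

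All 17 probes were isolated. The median difference of the 10 nearest probes, 5 on each side, was under 0.2 in size around each of them. Other probes of Tom1l1, Myh1, Plekhf1 and Neb were not called, and those of the remaining called genes are not described. At Myh1, a skeletal muscle myosin gene, the called probe lay at 0.41 to 1.21 in mixed tumours and at -0.25 to 0.16 in C57BL/6J tumours, whereas the 3 other Myh1 probes lay at 0.51 to 1.59 in all 11 tumours. At Plekhf1 the called probe lay at -0.33 to 0.29 in mixed tumours and -0.98 to -0.87 in C57BL/6J tumours, and its partner 1.1 kb away at -0.33 to 0.00 in all. Neb was unlike these genes. Its probe A_53_P155977 lay at -0.00 to 0.50 in mixed and -0.31 to -0.16 in C57BL/6J tumours, without overlap (difference 0.41, limma adjusted p = 0.238). The rest of the uncalled Neb probes differed by at most 0.13 in size.

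The direction was the same on each of the 3 slides at all 17 probes, with a smallest difference of 0.43, at Neb. The groups did not overlap at any of the 17, so this direction was largely fixed by their choice and is not a replication. The count depended on the slides and tumours included. With the slide as a block it was 2 (A382 passage 8 alone) or 1 (passage 9 alone), and without slide 1 it was 1, which was not among the 17. Leaving out A18 or A292 gave 10, with 8 and 7 of them among the 17. Leaving out B91 gave 3 and leaving out B86, B96 or B76 gave 1 in each case, all among the 17, and leaving out A390 gave 28, with 14 among the 17. The probe of Tom1l1 passed in every one of these except without slide 1 (limma adjusted p = 0.077, difference 2.14). Background correction by normexp called 14 probes, 5 higher and 9 lower, of which 6 were among the 17. Tom1l1 was not among them (difference 1.84, limma adjusted p = 0.0564), and the excess of higher probes depends on that choice.

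Chromosome 7 held 5 of the 17 probes and 7.40% of the autosomal probes tested. A18, A292 and A382 were the 3 highest mixed tumours at A_53_P112327, Plekhf1, Gapdhs and A_53_P110574, and also had the highest medians of the whole chromosome (0.28, 0.20 and 0.12). At A_53_P130451 (chr7:110388682-110388741) A18, A292, A382 and A394 lay at 1.37, 1.35, 1.17 and 1.30, and 231 Trig, A202 and A390 at 0.55, 0.56 and 0.78. At A_53_P110574 (chr7:61749340-61749399) the first 4 lay at 0.97, 0.85, 0.83 and 0.54 and the other 3 at 0.22, -0.20 and -0.11. C57BL/6J tumours lay at -0.36 to 0.06 at the first probe and at -1.26 to -0.67 at the second. The differences between the backgrounds were 1.15 ± 0.17 and 1.39 ± 0.21 (SE, limma adjusted p = 0.0263 and 0.034).

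Some probes that were lowered in several mixed tumours lay together on chromosomes 2 and 7. To describe them, each probe's ratio was taken as a deviation from the median of its 10 nearest neighbours in the same tumour, which removes broad gains and losses. Probes were kept where all 4 C57BL/6J tumours deviated by at most 0.3 and at least 1 mixed tumour by -1 or less, so their group difference was chosen and is not a result. There were 82 such probes, and 43 of them were low (-0.5 or less) in 1 mixed tumour only, 15 in A202, 13 in 231 Trig, 11 in A18 and 4 in A390. A292, A382 and A394 had 0 each. A202, 231 Trig and A18 are the mixed tumours of slide 1, the noisier slide, and its part in these counts was not tested. The other 39 probes were low in 2 to 7 mixed tumours, with 10 on chromosome 2 and 7 each on chromosomes 7 and 19.

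The stretch with the clearest levels lay in the olfactory receptor cluster of chromosome 2, whose genes encode odorant receptors. Over 226 kb, chr2:85849661-86076093, 6 of 15 probes had been chosen. The last 3 of them are shown because they lie within 14.2 kb of each other and gave the same 3 levels of tumours.

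A_53_P162036: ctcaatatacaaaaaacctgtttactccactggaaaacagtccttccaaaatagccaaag
A_53_P130633: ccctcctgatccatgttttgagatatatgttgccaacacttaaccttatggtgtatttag
Olfr1048: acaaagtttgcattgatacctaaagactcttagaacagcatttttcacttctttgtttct

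At the Olfr1048 probe A18 and A202 lay at -3.99 and -3.36. A second set, 231 Trig, A390, A292 and A394, lay at -1.36, -0.78, -0.86 and -0.89. A382 lay at -0.11, beside B86, B91, B96 and B76 at -0.10, 0.01, -0.02 and -0.36. Over all 6 probes A18 and A202 lay between -5.79 and -3.36, with no value for A202 at Olfr1040. The 4 tumours of the second set lay between -1.58 and -0.54, and A382 between -0.12 and 0.11. These 3 levels did not overlap, but the tumours were sorted into them by these same values, so this is a description. The Cy3 signal at Olfr1048 spanned 0.50 in log2 over the 12 arrays and the Cy5 signal 4.39, so the tumour channel carried the low values. At 3 of the 6 probes the Cy5 signal of A18 or A202 was not well above background, and those lowest ratios are bounds. The 9 other probes of the stretch, in Olfr1033, Olfr1038, Olfr1039, Olfr1043, Olfr52, Olfr1045 and Olfr1046 and 1 outside a named gene, did not share the pattern except Olfr1046, at -1.20 in A18, -1.18 in A202, -0.18 in A382 and -0.53 to -0.32 in the second set. Apart from Olfr1046 they lay between -0.50 and 0.43 in all tumours. No probe of the stretch passed the comparison of backgrounds (smallest limma adjusted p = 0.508).

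**Figure D2:**
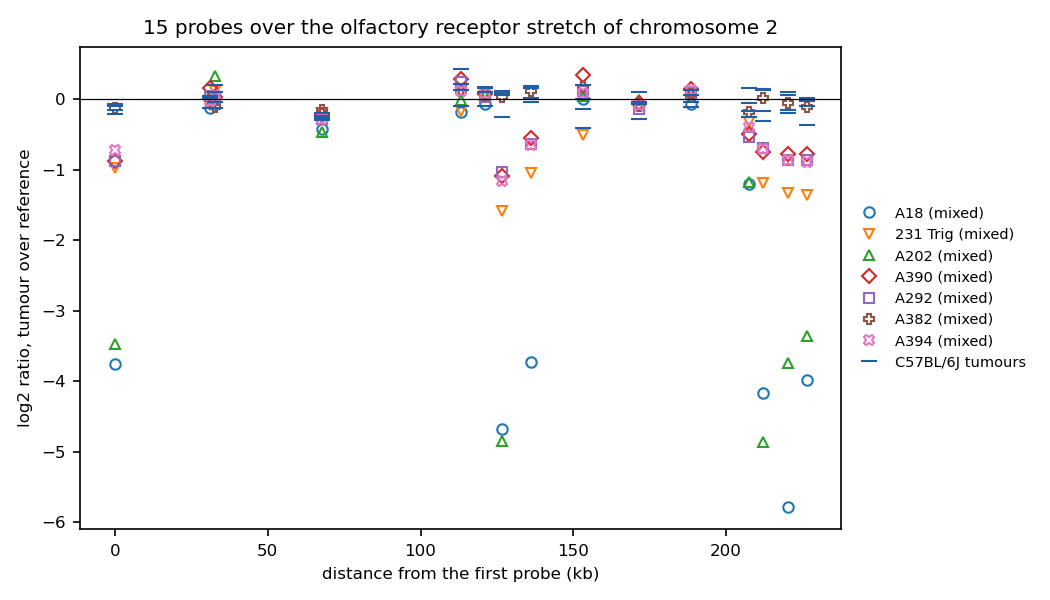
Log2 ratio (vertical axis) of 15 probes against distance in kb from the first, with a symbol for each mixed tumour and a dash for each C57BL/6J tumour. At 6 probes A18 and A202 lie at -3.36 or below and 4 mixed tumours between -1.58 and -0.54. A382 lies there beside the C57BL/6J tumours near 0. A202 has no value at Olfr1040, which is among the 6. The probes between the 6 lie near 0 in all tumours, apart from Olfr1046.

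A second block lay on chromosome 7, between chr7:109711923 and chr7:111216626 in a region of Trim and olfactory receptor genes, where 5 of 96 probes had been chosen. The probe with the lowest ratios carries this sequence.

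A_53_P105759: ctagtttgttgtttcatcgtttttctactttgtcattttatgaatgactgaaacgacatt

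At this probe A18, A292, A394 and A382 lay at -4.15, -3.56, -3.58 and -2.04, and A390, 231 Trig and A202 at -0.69, -0.82 and -0.31. The Cy5 signal of A18, A292 and A394 was not well above background there, so their ratios are bounds. At Trim21, which encodes a cytosolic antibody receptor, the same 4 lay at -1.76, -1.59, -2.21 and -1.40 and the other 3 at -0.68, -0.65 and -0.40. At A_53_P109203, 1 of the 9 probes of BC165990 (a cDNA name) in the block, the 4 lay at -1.46, -1.38, -1.55 and -1.03 and the other 3 at -0.43, -0.57 and -0.10. The same 4 tumours lay highest at other probes of the block, where mixed tumours were raised. One was A_53_P130451, a called probe, and another was A_53_P101047, also of BC165990, at 1.05, 0.88, 0.68 and 0.79 in A18, A292, A394 and A382. At Olfr643 they lay at 1.66, 1.24, 1.06 and 1.11, and at the AK015805 probe A_53_P155033 at 1.61, 1.24, 1.05 and 1.13. The last 3 did not pass (limma adjusted p = 0.0785, 0.0939 and 0.0651). At A_53_P106075, 45.0 kb from A_53_P105759, A18 stood apart from A292, A394 and A382 with -0.06. The Cy3 signal of A_53_P106075 spanned 2.74 in log2 over the arrays, so its ratio was not read further.

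On chromosome 19 the 7 probes were spread over 54.3 Mb, and at 3 of them, Borcs7, BC106809 and AK018976, A18, 231 Trig and A202 lay at -1.89 or below and the other mixed tumours at -1.63 or above. At Borcs7, whose protein helps position lysosomes, A18, 231 Trig and A202 lay at -2.38, -2.50 and -2.28, A390 at -1.63, and A292, A382 and A394 at -0.80, -0.59 and -0.75. At BC106809 the corresponding values were -2.32, -2.22 and -2.65, then -0.95, then -0.47, -0.47 and -0.34. The 3 lowest tumours are the mixed tumours of slide 1. The C57BL/6J tumour on that slide, B86, lay at 0.01 and 0.34 at the 2 probes, and the part of the slide in the order of the mixed tumours was not tested. Kcnk7 and AK005010, called above, are 2 of the 7.

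**Figure D3:**
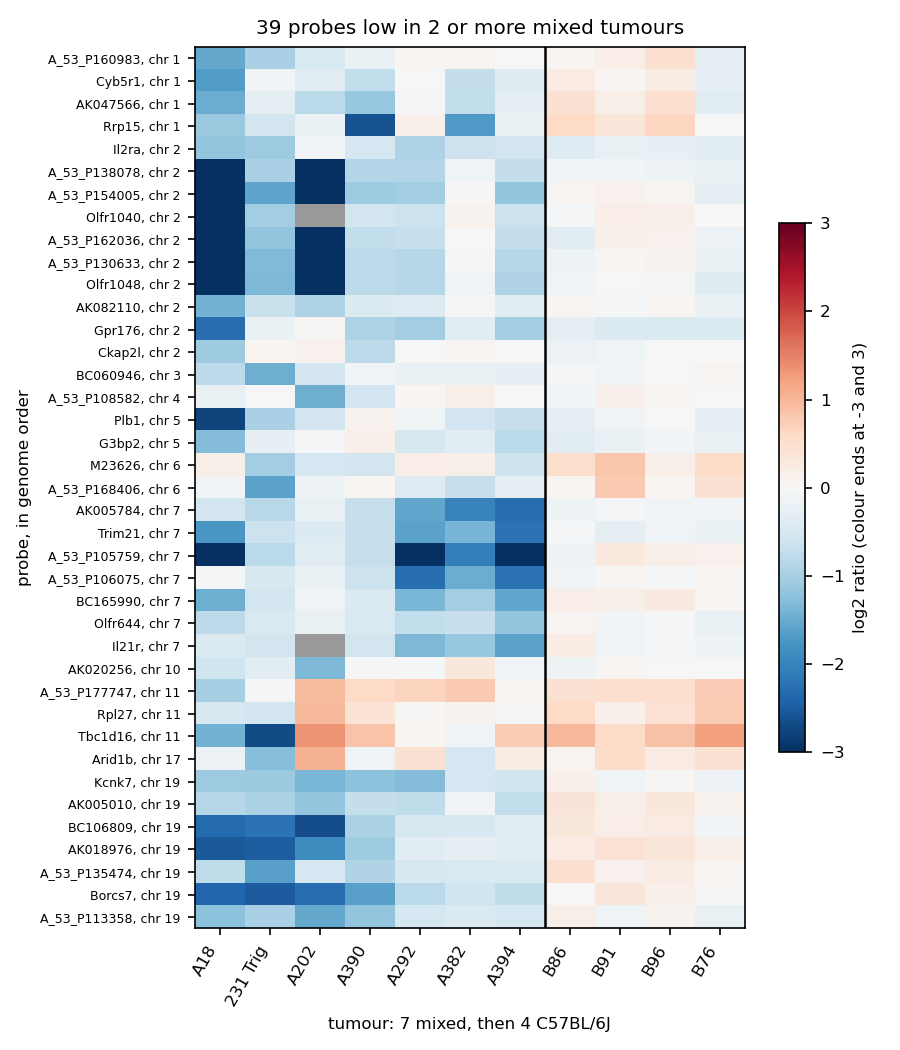
Colour shows the log2 ratio of 39 probes (rows, in genome order) in 7 mixed and 4 C57BL/6J tumours (columns), with grey for a missing value. Probes of chromosome 2 near Olfr1048 are lowest in A18 and A202. Borcs7, BC106809 and AK018976 on chromosome 19 are lowest in A18, 231 Trig and A202, while other probes of chromosomes 7 and 19 differ in their order. The probes were chosen by small deviations from neighbours in the 4 C57BL/6J tumours, not by their ratios. Their columns can therefore lie off 0, as at Tbc1d16 on chromosome 11 (0.97, 0.57, 0.87 and 1.22 in B86, B91, B96 and B76).

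Neighbouring probes shared their pattern more often than distant ones. Among pairs of the 82 probes within 1 Mb of each other (50 pairs), the same mixed tumours were low in 72.0%, against 7.09% of the 3004 pairs on different chromosomes. For pairs 100 kb to 1 Mb apart the figure was 77.8% (27 pairs). These shares include neighbouring probes that were low in 1 tumour only, and such neighbours count as matching pairs. Those on chromosome 4 from Mllt3 to AK144774, for instance, were low in 231 Trig alone. For the 39 probes low in 2 or more tumours the share was 38.1% of 21 pairs within 1 Mb and 2.18% of 643 pairs on different chromosomes. The rule that used ratios in place of deviations, with isolated probes only, kept 71 probes and gave 39.1% of 23 pairs and 7.07% of 2194 pairs. Pairs share probes and tumours, so these shares are descriptions without a test.

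The pattern repeated in the culture measured at 2 passages. Probes were chosen again without A382, which gave 82 probes with a value on both of its arrays. The arrays of passages 8 and 9, hybridised on different slides, were in the same state at 79 of the 82 (96.3%), 17 of them low in both. Their deviations differed by a median of 0.06 and by at most 0.47. The array of passage 8 shared its state with arrays of the other mixed tumours at 51.9% to 81.7% of the probes.

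Counted over the genome on slides 2 and 3, each pair of mixed tumours differed in the deviation from neighbours at more probes than any pair of C57BL/6J tumours. The measure is the share of autosomal probes whose deviations from their neighbours lay at least 0.8 apart on 2 arrays. It was 0.032% (13 probes) between the 2 arrays of A382. It was 0.054% to 0.165% (22 to 67 probes) among the 3 pairs of C57BL/6J tumours and 0.199% to 0.518% (81 to 211 probes) among the 9 pairs of arrays of different mixed tumours. Pairs of a mixed and a C57BL/6J array gave 0.403% to 0.594% (164 to 242 probes) over 15 pairs. On these slides every C57BL/6J pair lay below every other pair of different tumours, and the ranges of mixed pairs and of pairs across backgrounds overlapped. The pairs share arrays, so no test was made. The direction was opposite for the ratio itself, which keeps broad gains and losses: on these slides its SD exceeded 0.5 at 259 probes (0.636%) over 4 mixed tumours and at 504 (1.24%) over 3 C57BL/6J tumours. Over all slides it did so at 548 probes over 7 mixed and at 275 over 4 C57BL/6J tumours. With a limit of 0.5 the corresponding ranges were 0.356% to 0.552%, 0.631% to 1.513% and 1.107% to 1.667%, and with a limit of 1.0 they were 0.022% to 0.103%, 0.118% to 0.354% and 0.236% to 0.361%.

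Pairs with an array of slide 1 had higher counts, kind by kind. Its pairs of mixed tumours lay at 1.05% to 1.13%, and pairs with 1 array on it at 0.389% to 1.58% over all kinds. B86 lay nearest to C57BL/6J tumours on other slides: 0.389% from B96 and 0.51% from B76, but 0.813% from B91, and 1.02% to 1.51% from the 3 mixed tumours on its own slide. A394 lay at 0.798% from B86, slightly nearer than B91.

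**Figure D4:**
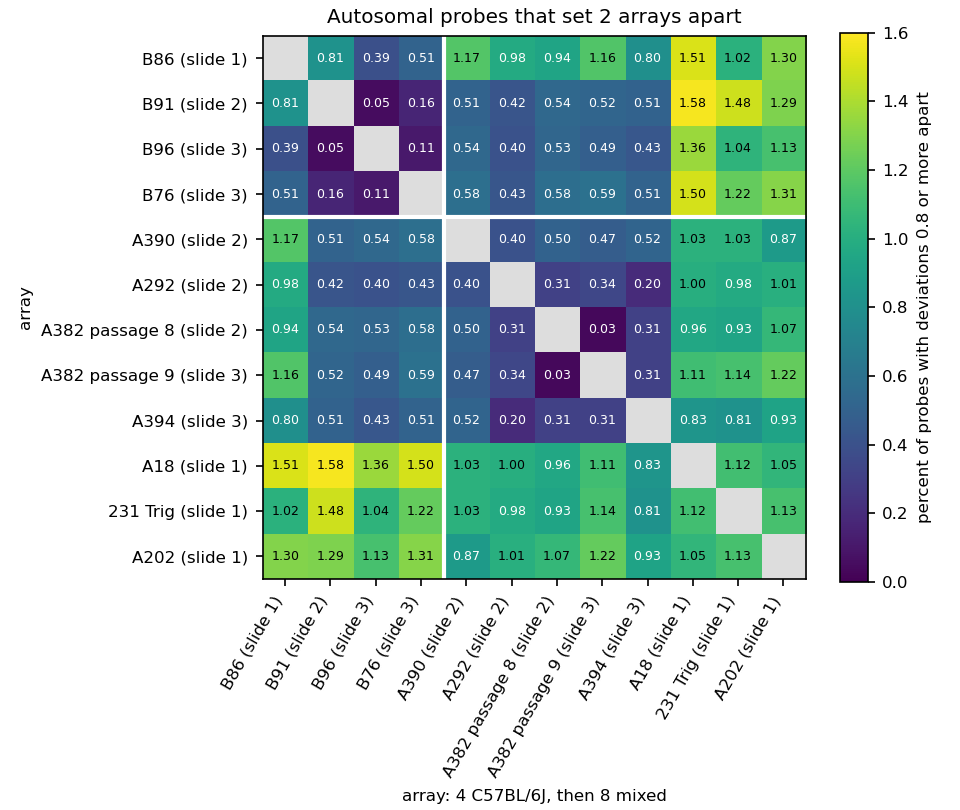
Percent of autosomal probes whose deviations from neighbours lay 0.8 or more apart, for each pair of 12 arrays (axes), 4 of C57BL/6J tumours and then 8 of mixed tumours. The lowest value, 0.03, joins both arrays of A382; pairs of B91, B96 and B76 lie at 0.05 to 0.16, and pairs with a slide 1 array at 0.39 or above.

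Windows of 10 neighbouring probes, with a median length of 308 kb, gave 0 calls of 4072 (0%) in limma, with 428 windows (10.5%) at an unadjusted p under 0.05 and a smallest adjusted p of 0.448. Of the 10 largest differences, 9 are therefore described without a claim that the backgrounds differ there. Several followed 1 tumour. The window with Nsmce2 and Trib1 on chromosome 15 (difference -0.92 ± 0.50 SE) lay at 3.81 in B76 and at -0.02 to 0.47 in the other 10 tumours, and without B76 the difference was -0.02. The window with Sema5a on chromosome 15 (-0.47 ± 0.23 SE) lay at 1.63 in B76, and that with Tnfsf13b and Myo16 on chromosome 8 (-0.35 ± 0.17 SE) at 0.93 in B76. The window with Cdkn2a, which encodes the p16 and p19 inhibitors of the cell cycle (0.64 ± 0.41 SE), was low in tumours of both backgrounds, at -1.78 in 231 Trig, -2.58 in B86 and -1.44 in B96.

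In 3 other windows more than 1 tumour set the difference. The window of pregnancy-specific glycoprotein genes on chromosome 7 (Psg25, Psg22, Psg19 and Psg17, chr7:18767169-19404195) had the smallest unadjusted p, 0.000448, and its groups did not overlap. The mixed tumours lay at 0.45 (A18), 0.43 (A292), 0.43 (A382), 0.20 (A202), 0.19 (A390), 0.16 (231 Trig) and 0.16 (A394), and B86, B91, B96 and B76 at 0.02, -0.11, -0.09 and -0.09 (difference 0.36 ± 0.08 SE). The window with Slc25a37, Synb and Entpd4 (chr14:69793505-70044681) lay at 0.43, 0.48, 0.44 and 1.10 in those C57BL/6J tumours and at -0.39 to 0.44 in mixed tumours, where A390 reached 0.44 and A18 was lowest (difference -0.65 ± 0.16 SE, unadjusted p = 0.000702). Within it, the Entpd4 probe nearer the end lay at 0.87 to 1.70 in C57BL/6J tumours, at 1.05, 0.70 and 0.68 in A390, A202 and A394, and at 0.00 to 0.19 in A18, A382, 231 Trig and A292. The window that holds Olfr1048 lay at -0.86 in A18, -0.75 in A202, -0.03 in A382 and -0.32 to -0.26 in the other mixed tumours (difference -0.36 ± 0.13 SE). The 2 remaining windows, around Sox5 and around M23626 on chromosome 6, were highest in B91 at 0.83 and 0.91.

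By gene, 3 of 19959 (0.015%) differed in limma, and all 3 were higher in mixed tumours: Tom1l1 (1.21 ± 0.13 SE, adjusted p = 0.00168), Gapdhs (1.23 ± 0.14, adjusted p = 0.00304) and Lmo4 (0.69 ± 0.10, adjusted p = 0.0233), a LIM domain cofactor of transcription. A gene's value is the mean of its probes, and 45.3% of genes had a single probe, as Gapdhs and Lmo4 did. Lmo4 lay at 0.05 to 0.38 in mixed tumours and at -0.37, -0.69, -0.61 and -0.30 in the C57BL/6J tumours. Lmo4 did not pass with the slide as a block and A382 at passage 8 alone (limma adjusted p = 0.111), nor when B86, A202, B91, A292 or B96 was left out (0.0512 to 0.155). Without slide 1 no gene passed, and leaving out single tumours gave 2 to 10 (8 without 231 Trig, 10 without A390, 5 without A382 and 7 without A394).

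No gene listed as a tumour suppressor or growth driver passed. Of 17 tumour suppressor genes of nerve sheath tumours, 0 were higher, 0 lower and 17 did not pass, with a median difference of 0.11 against 0.00 over all genes. Cdkn2a lay at -4.57 (231 Trig), -3.60 (A382), -3.52 (A394), -0.97 (A292), -0.42 (A202), -0.17 (A390) and -0.07 (A18) in mixed tumours. In C57BL/6J tumours it lay at -5.19 (B86), -3.35 (B91), -3.31 (B96) and -0.09 (B76), so values of -3 or below occurred in 3 of 7 and in 3 of 4 (difference 1.08 ± 0.96 SE, limma adjusted p = 0.641). Nf1, the neurofibromin gene, lay at 0.43 to 1.02 and 0.37 to 0.78 (adjusted p = 0.692), and Trp53 at 0.40 to 1.39 and 0.66 to 1.33 (adjusted p = 0.987). Both are on chromosome 11, which was raised as a whole, with medians of 0.50 to 1.06 in mixed and 0.41 to 0.88 in C57BL/6J tumours.

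Of 20 growth drivers and genes of the transgene, none passed in limma, and 3 had an unadjusted p under 0.05, against 10.3% of all genes (median difference 0.06). Myc, which encodes a growth-promoting transcription factor, was raised in A390 (3.30), A202 (2.40) and B76 (4.47) and lay at -0.19 to 0.39 in the other 8 (difference -0.31 ± 0.83 SE, adjusted p = 0.881; 0.79 without B76). Met, the receptor of hepatocyte growth factor, lay at -0.19 to 0.18 in mixed tumours and at 0.53, 0.73, 0.21 and 0.48 in B86, B91, B96 and B76, without overlap (difference -0.46 ± 0.10 SE, adjusted p = 0.193). The median of its chromosome, 6, lay at -0.06 to 0.26 in mixed tumours and at 0.25, 0.67, -0.01 and 0.34 in those C57BL/6J tumours. Nrg1, the neuregulin gene itself, lay at -0.56 to -0.20 and at -0.36 to 0.09 (adjusted p = 0.593); its transgene copies are probed only where a probe lies in the inserted sequence, which was not tested.

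Genes at loci where strains are known to vary did not pass either. In limma 0 of 45 such genes were called, with a median difference of -0.00 and 10 (22.2%) at an unadjusted p under 0.05, against 10.3% of all genes. Glo1, the glyoxalase gene that some strains carry in extra copies, lay at -0.56 to -0.17 and at -0.47 to -0.16 (adjusted p = 0.925). Skint4, of a family of immunoglobulin-like genes, lay near 1 in 10 of the 11 tumours, from 0.80 to 1.30, and at -0.02 in A18 (adjusted p = 0.696). Cd244a, a receptor of natural killer cells, lay at -0.40 to 0.32 and -0.64 to -0.01 (difference 0.31 ± 0.13 SE, adjusted p = 0.485). Among the 4 genes listed for a known mutation in SJL/J or C57BL/6J, none passed (median difference 0.04). Nnt, which lacks several exons in C57BL/6J, lay at -0.20 to 0.15 in mixed tumours and -0.00 to 0.12 in C57BL/6J tumours over 2 probes. H2-Ea, a class II gene of the major histocompatibility complex, lay at 0.05 to 0.50 and -0.25 to 0.48 (adjusted p = 0.753), and 0 of 16 genes of that complex were called (median 0.08).

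Of 600 olfactory receptor genes none was called, the median difference was 0.02, and the most extreme differences were -1.53 and 0.91. Groups did not overlap, with a difference of at least 0.2, at 17 of the 600, against 1.64% of all genes tested. Of 59 vomeronasal receptor genes none was called (median -0.01). The list of antigen receptor loci matched a single name, Ighmbp2, which is not an antigen receptor gene, so it is not described. Counts at an unadjusted p under 0.05 were 85 for olfactory and 10 for vomeronasal receptors, against 10.3% of all genes.

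By chromosome, 0 of 19 autosomes passed (0%) in the exact two-sided permutation test over the 330 ways to draw 4 of 11 tumours, whose smallest possible p is 0.00303. After adjustment over 19 autosomes a lone chromosome at that p would stay above 0.05. The test could therefore not call a chromosome on its own, and the count of 0 does not show that the backgrounds were alike. The largest difference was on chromosome 6. B86, B91, B96 and B76 had medians of 0.25, 0.67, -0.01 and 0.34 there, and the mixed tumours -0.06 to 0.26 (difference -0.24, exact p = 0.0515, adjusted p = 0.36; -0.13 without B91). Chromosome 7 lay higher in mixed tumours, at -0.05 to 0.28 against -0.03, -0.11, -0.05 and -0.10 (difference 0.16, exact p = 0.0303, adjusted p = 0.36). It was higher on each slide, by 0.15, 0.22 and 0.10. The other 3 of the 5 largest were chromosome 19 (-0.18), chromosome 1 (-0.17) and chromosome 12 (0.17), with adjusted p = 0.36, 0.537 and 0.537 in the same exact test. On chromosome 12 the difference was 0.35 on slide 1 and -0.03 and -0.03 on slides 2 and 3, and on chromosome 1 it was -0.35, -0.15 and -0.00.

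**Figure D5:**
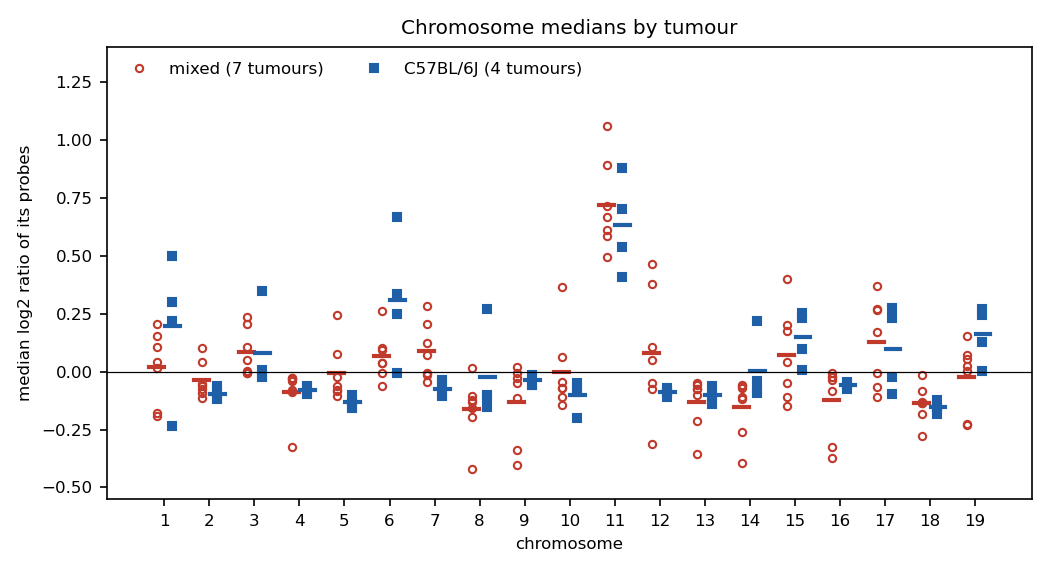
Median log2 ratio of the probes of each autosome (vertical axis), with a circle per mixed tumour, a square per C57BL/6J tumour and a bar at each group mean. The groups overlap on all 19 chromosomes; on chromosome 7 the C57BL/6J tumours lie between -0.11 and -0.03 and the mixed tumours between -0.05 and 0.28.

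The windows at an unadjusted p under 0.05 were gathered on a few chromosomes. Chromosome 6 held 150 of the 428, all lower in mixed tumours, which is 62.8% of its windows. Chromosome 7 held 125, all higher (41.4%), chromosome 19 held 50, all lower (37.6%), and chromosome 5 held 34, all higher (13%). None of these chromosomes passed its own test, which could not call a chromosome on its own.

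The altered share of the genome overlapped between the backgrounds. Windows at or above 0.2 made up 14% to 25.9% of a mixed tumour (18.2% ± 4.22, SD, n = 7) and 17.5% to 28.6% of a C57BL/6J tumour (22.3% ± 4.82, SD, n = 4). Windows at or below -0.2 made up 4.99% (A394) to 29.0% (A202) and 6.43% (B96) to 14.6% (B76), with means of 13.7% ± 8.31 and 11.4% ± 3.57 (SD). The differences were -4.07 and 2.32 percentage points (exact two-sided permutation p = 0.179 and 0.654, adjusted p = 0.536 and 0.791 over 3 measures), and the sign of the second turned to -0.23 without A202 and to -1.48 without slide 1. Together the altered windows made up 31.9% ± 11.7 of mixed and 33.7% ± 8.15 of C57BL/6J tumours (SD, adjusted p = 0.791 in the same exact test).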

How the data were processed

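DNA of 11 tumours was measured on 12 two-colour arrays. Per the file headers, the authors deposited log10 ratios of Cy5 over Cy3 after background subtraction and dye normalisation by Agilent Feature Extraction (9.5 in the submitters' processing notes), with the intensity of each channel. The build is mm9 in the same notes. Exons and introns are not given, since no mm9 annotation was used.

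Ratios were turned to log2. Control spots were dropped (43020 spots stayed) and spots marked as outliers set to missing; repeated spots were averaged to 42404 probes, and the median of the 40726 autosomal probes was subtracted within each array. No spot was saturated. Symbols follow RefSeq (assembly GRCm38.p6, names only) through accessions (28951 of 29337 matched). The 2 arrays of A382 were averaged.

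Probes, windows and genes were compared with limma 3.58.1 in R 4.3.3 (lmFit, eBayes, Benjamini-Hochberg); a call needed an adjusted p under 0.05 and a difference of at least 0.2. Chromosome medians and altered shares were tested by exact permutation. The scripts were tested on simulated data. The members and lists were chosen with earlier results of these data known. Named were the 5 highest and 5 lowest called probes without overlap, the 10 windows with the largest difference (at most 1 per 2 Mb), called genes and 12 genes fixed by name (1 window and 1 gene are not reported here), and the 5 largest chromosome differences; other called probes, the olfactory, chromosome 7 and chromosome 19 blocks and Acyp2 were chosen after their values were seen, as were deviations from neighbours and the limit of 0.8. Alternatives were single tumours left out, a slide block, centring, normexp (offset 50), window size and thresholds. The number of arrays limits the precision.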

Additional observations from a re-analysis of the deposited data

Results flagged for a closer look

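Each of the 17 called probes differed between the backgrounds in the test of the difference itself (limma adjusted p under 0.05). Mixed minus C57BL/6J was -1.92 at A_53_P161891, -1.01 at AK005010, -0.99 at Kcnk7 and -0.79 at Col5a3. It was 0.54 at Neb, the nebulin gene of muscle, 0.65 at A_53_P112327, 0.69 at Lmo4, 0.75 at Upf2, a factor of nonsense-mediated decay, and 0.82 at Tbc1d19. It was 0.89 at Myh1, 0.91 at Plekhf1, 1.01 at Tmem150c, 1.12 at Mapk1ip1l, 1.15 at A_53_P130451, 1.23 at Gapdhs, 1.39 at A_53_P110574 and 2.53 at Tom1l1.

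A sample lay far from the rest of its group in 13 of 90 groups of values examined by Dixon's criterion. Chance meets it in about 1 of 20 groups that are independent and not chosen by their values. These groups include windows named for their large differences, which a single far tumour can produce. Some also overlap, such as Myc and the window of Nsmce2, both on chromosome 15. The count of 13 can therefore not be set against that rate. B76 was far from the other C57BL/6J tumours on chromosome 3 (0.35) and chromosome 8 (0.27), at Myc (4.47), at Skint4 (0.97), and in the windows of Nsmce2 (3.81), of Slc25a37 and Entpd4 (1.10) and of Myo16 (0.93). A202 was far from the other mixed tumours on chromosome 4 (-0.33), at Nrg1 (-0.56), and in the window of Myo16 (-0.58). A382 was far on chromosome 10 (0.36), A18 at Skint4 (-0.0224) and 231 Trig in the window of Cdkn2a (-1.78).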

How the results depend on the processing

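Each of the 17 probes kept its direction in every alternative run that included it, but not its call. The groups did not overlap at these probes, so runs that only left out tumours or a slide could not turn the direction. The call was lost in 2 of 21 runs at Tom1l1, in 13 at Kcnk7, Myh1 and A_53_P110574, and in 17 at Neb. With normexp the difference at A_53_P161891 fell from -1.92 to -0.41 (limma adjusted p = 0.34). The number of calls ranged from 1 to 28 when single tumours were left out, was 2 and 1 with the slide block and 1 without slide 1; other settings gave 12 to 20. Genes called ranged from 2 to 10 when single tumours were left out, and were 3 (A382 passage 8; 2 shared with the main 3) and 8 (passage 9) with the slide block, 0 without slide 1 (smallest limma adjusted p = 0.109), 5 centred on the mode (3 higher, 2 lower), 7 without centring (5 higher, 2 lower), 15 with normexp (5 higher, 10 lower) and 1 among genes with 2 or more probes. No window and no chromosome passed in any alternative run, but the chromosome test could not call a chromosome on its own. The pattern over mixed tumours rested on 71 probes, or 39 in the deviation rule with 2 or more low tumours. The difference in windows below -0.2 ranged from -0.23 to 3.78 points when single tumours were left out, was -1.48 without slide 1 and -2.50 with a threshold of 0.1; that in all altered windows ranged from -4.99 to 1.43. Differences near 0 turned sign: Trp53 (-0.10 to 0.12 over left-out tumours, -0.000523 with the earlier A382 array, -0.047 centred on the mode, -0.0366 with normexp), Glo1 (-0.0732 to 0.0293; 0.0095 with the slide block), H2-Ea (-0.0372 to 0.20), Myc (-0.75 to 0.79) and Skint4 (0.0556 without slide 1). The cause was not tested. No paired analysis was possible because the labels give the backgrounds no shared replicate numbers.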

Other observations

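Probes of the X chromosome, left out of the comparisons, had medians of 1.00 in A394, 0.68 in A390, 0.60 in B91, 0.44 in A202 and 0.18 in A18, and lay between -0.16 and -0.06 in the other 6 tumours. The labels do not give the sex of the mice or of the reference, and the values were not compared between backgrounds.

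Probes raised in mixed tumours numbered 76, against 82 lowered. At the 76 all 4 C57BL/6J tumours deviated from their neighbours by at most 0.3 and at least 1 mixed tumour by 1 or more. Of these, 25 were raised by 0.5 or more in 2 or more mixed tumours, against 39 of the 82 lowered by as much. The mirror case, 7 mixed tumours within 0.3 and a C57BL/6J tumour at -1 or less, held 7 probes; the groups differ in size, so the counts are not on an equal footing. All 4 C57BL/6J tumours deviated by -0.5 or less at 289 probes and by 0.5 or more at 350. All 7 mixed tumours did so at 109 and 94, and all 11 tumours at 77 and 80.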
